A study of Mus musculus with 10 samples.

Results

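The genes described here are those of the cell division cycle and of DNA replication. They came from a list of 38 genes whose transcripts are known to rise in dividing cells, and 37 of them had a probe set of their own on the array, out of 18193 genes measured. Ccnb1 (cyclin B1) had no probe set listed under that symbol alone and is not analysed here. A probe set is a group of short array probes that reads 1 transcript region, and 84 probe sets carried a member's symbol and no other. Where a gene had several, the brightest (by mean signal of the 10 arrays) stood for it, which left 47 further probe sets beside the 37 brightest. By function, 14 of the genes belong to S phase, when DNA is copied, and 23 to mitosis, when the copied chromosomes are parted.

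The study profiled whole hippocampi of female SJL/J mice, obtained at 8 to 10 weeks of age, at 2 days after an axonal lesion. SJL/J is an inbred strain much used in work on myelin-directed autoimmunity. The AxL group (n = 5 mice) had the lesion alone, and the TPlp+AxL group (n = 5 mice) first received T cells specific for proteolipid protein, a major protein of myelin, and was then lesioned. Both groups were lesioned, so no value here is set against an unlesioned hippocampus, and the cut tract is not given in the sources used here. Each mouse gave 1 array, and the labels number the mice 1 to 5 within a group. The comparison asks which transcripts of the lesioned hippocampus differ when myelin-specific T cells are present, in a study of the neurogenesis that follows such a lesion.

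A cell enters the cycle when cyclin D and cyclin E kinases inactivate the retinoblastoma proteins and free E2F factors, which switch on the genes for licensing and copying DNA. A later wave of genes, driven by B-MYB and FOXM1 through a promoter element called the CHR, supplies the kinases, motors and kinetochore proteins of mitosis. The adult hippocampus holds few dividing cells. The neural progenitors of the dentate gyrus are known to divide throughout life, and oligodendrocyte precursors, microglia and incoming leukocytes can divide after a lesion.

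The split into S-phase and mitotic genes also showed in the letters of their promoters. Any link between these letters and the way the genes varied from mouse to mouse was not tested. Promoters were taken from RefSeq (GRCm38.p6) as 250 bases before to 50 bases after the transcript start, and 31 of the 37 genes had one in the table. The letters TTTGAA, the core of the CHR, occurred on either strand in 14 of 19 mitotic genes (73.7%) and in 1 of 12 S-phase genes (8.33%, Mcm2), against 5466 of 27025 genes in the table (20.2%). The letters TTGGCGC or TTCCCGC, which are E2F motifs, occurred in 6 of 12 S-phase genes (50%) and in 2 of 19 mitotic genes (10.5%), against 7.79% of the genes in the table. CCAAT, the letters bound by the factor NF-Y, occurred in 16 of 19 mitotic genes (84.2%) and 8 of 12 S-phase genes (66.7%), against 41.1%. A CCAAT match and a match to the reverse complement of TTGGCGC can share letters. These are matches of letters within a window and were not tested as binding sites.

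Promoters of 3 mitotic genes whose signal stood out in single mice follow, 5′ to 3′ on the gene's own strand, with TTTGAA, E2F and CCAAT matches of either strand in capitals.
Cenpa (chr5:30666636-30666935, plus strand): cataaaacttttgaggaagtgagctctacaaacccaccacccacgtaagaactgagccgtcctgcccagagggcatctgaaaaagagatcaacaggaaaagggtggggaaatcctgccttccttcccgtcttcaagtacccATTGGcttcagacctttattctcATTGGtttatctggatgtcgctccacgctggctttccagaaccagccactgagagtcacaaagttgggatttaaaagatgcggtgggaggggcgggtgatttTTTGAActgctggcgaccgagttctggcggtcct
Mki67 (chr7:135716330-135716629, minus strand): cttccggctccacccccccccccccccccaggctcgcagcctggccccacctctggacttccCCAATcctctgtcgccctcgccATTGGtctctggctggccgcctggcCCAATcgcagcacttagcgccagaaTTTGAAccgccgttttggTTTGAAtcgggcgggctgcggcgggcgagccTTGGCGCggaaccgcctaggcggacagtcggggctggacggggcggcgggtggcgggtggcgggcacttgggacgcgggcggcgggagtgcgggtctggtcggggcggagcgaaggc
Top2a (chr11:99024140-99024439, minus strand): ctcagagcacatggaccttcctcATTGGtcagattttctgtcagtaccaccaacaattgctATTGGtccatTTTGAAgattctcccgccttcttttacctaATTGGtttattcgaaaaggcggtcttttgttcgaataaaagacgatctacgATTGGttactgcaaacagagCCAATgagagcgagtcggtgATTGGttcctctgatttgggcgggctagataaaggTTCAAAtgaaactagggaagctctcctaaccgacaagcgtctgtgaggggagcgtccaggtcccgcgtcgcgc
Cenpa, which encodes the histone variant that marks the centromere, holds TTTGAA at 17, counted from 1 at the first transcribed base. Mki67, which encodes the proliferation marker Ki-67, holds it at -116 and -98. Top2a, which encodes the topoisomerase that untangles sister chromosomes, holds it at -179 and, on the other strand, at -23.

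Promoters of 3 subunits of the replicative helicase are shown in the same way, since each holds 2 or more E2F matches (Mcm7 does too).
Mcm3 (chr1:20820263-20820562, minus strand): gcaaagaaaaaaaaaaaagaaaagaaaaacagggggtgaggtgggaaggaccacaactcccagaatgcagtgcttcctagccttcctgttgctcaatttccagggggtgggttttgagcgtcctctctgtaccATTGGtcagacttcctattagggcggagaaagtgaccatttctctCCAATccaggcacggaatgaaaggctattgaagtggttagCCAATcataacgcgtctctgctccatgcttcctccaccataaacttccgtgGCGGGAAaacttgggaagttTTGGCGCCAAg
Mcm5 (chr8:75109259-75109558, plus strand): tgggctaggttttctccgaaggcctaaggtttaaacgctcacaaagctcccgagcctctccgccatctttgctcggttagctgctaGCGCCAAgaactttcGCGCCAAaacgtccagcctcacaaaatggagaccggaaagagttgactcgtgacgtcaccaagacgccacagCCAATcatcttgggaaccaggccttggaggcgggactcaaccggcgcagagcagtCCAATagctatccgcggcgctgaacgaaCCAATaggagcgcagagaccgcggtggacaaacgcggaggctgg
Mcm6 (chr1:128359656-128359955, minus strand): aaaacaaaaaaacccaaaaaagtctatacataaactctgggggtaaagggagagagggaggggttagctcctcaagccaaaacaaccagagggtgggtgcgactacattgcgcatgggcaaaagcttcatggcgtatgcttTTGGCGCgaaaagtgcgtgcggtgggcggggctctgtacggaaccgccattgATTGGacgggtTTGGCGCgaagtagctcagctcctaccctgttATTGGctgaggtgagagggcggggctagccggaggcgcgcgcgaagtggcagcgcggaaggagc
Mcm3 holds 3 E2F matches and 3 CCAAT matches, the last 2 E2F matches sharing letters. Mcm5 holds 2 E2F and 3 CCAAT matches, and Mcm6 holds 2 of each. None of the 3 holds TTTGAA in this window.

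The deposited log2 values had array medians between 7.88 and 7.92. Neuronal markers of the hippocampus were bright, with a list mean of 10.50 to 10.75 in AxL and 10.50 to 10.66 in TPlp+AxL over 12 genes. The choroid plexus list, which marks tissue lying next to the hippocampus, ranged from 8.11 to 10.51 among AxL mice and from 8.16 to 9.65 among TPlp+AxL mice. AxL 3, AxL 5 and TPlp+AxL 1 carried its high values, and the members' values without these mice are given at the end. Of 45037 probe sets, 376 (0.835%) passed an adjusted p of 0.05 in limma, 291 higher and 85 lower in TPlp+AxL.

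None of the 37 cell cycle genes rose or fell in TPlp+AxL. By limma, 0 of 37 had an adjusted p under 0.05, where 229 of 18193 genes (1.26%) did. At an unadjusted p under 0.05, 3 genes were higher (Mcm4, Mcm3 and Kif11) and 1 was lower (Tk1). That is 10.8% of the members, against 17.9% of all genes. The AxL and TPlp+AxL mice overlapped in every member (groups apart in 0 of 37), and 4.55% of all genes had groups that did not overlap. At shares of 1.26% and 4.55%, a list of 37 genes holds few such genes or none. The 0 counts therefore do not set the members apart from other genes. In bulk tissue, fewer cells of a type and less RNA per cell cannot be told apart, so these values speak of the transcript pool of the whole hippocampus.

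The changes were small as well as uncalled. Log2 changes, TPlp+AxL minus AxL, ran from -0.18 for Pcna to 0.20 for Mcm4, with a median of 0.02, and their standard errors (SE) ran from 0.03 to 0.18. The 95% intervals of all 37 genes lay between -0.51 and 0.41. Each thus excluded a change in signal of 1.5-fold (0.58 on the log2 scale) in either direction. The intervals of 17807 of 18193 genes did so too, so this is not particular to the members. The median was 0.03 for the 14 S-phase genes and 0.02 for the 23 mitotic genes. Over all genes it was -0.03, and over the 11978 genes with mean levels of 7 to 10 it was -0.01. Changes were above 0 for 23 of 37 members (62.2%), against 43.8% of the genes at those levels and 37.3% of all genes. Subtracting each array's median moved the members' median to -0.01 and that of all genes to -0.06, so both shifted together. Single mice mattered more: leaving out TPlp+AxL 3 gave a members' median of -0.01 (all genes -0.03), and leaving out AxL 4 gave 0.07 (all genes -0.02).

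**Figure D1:**
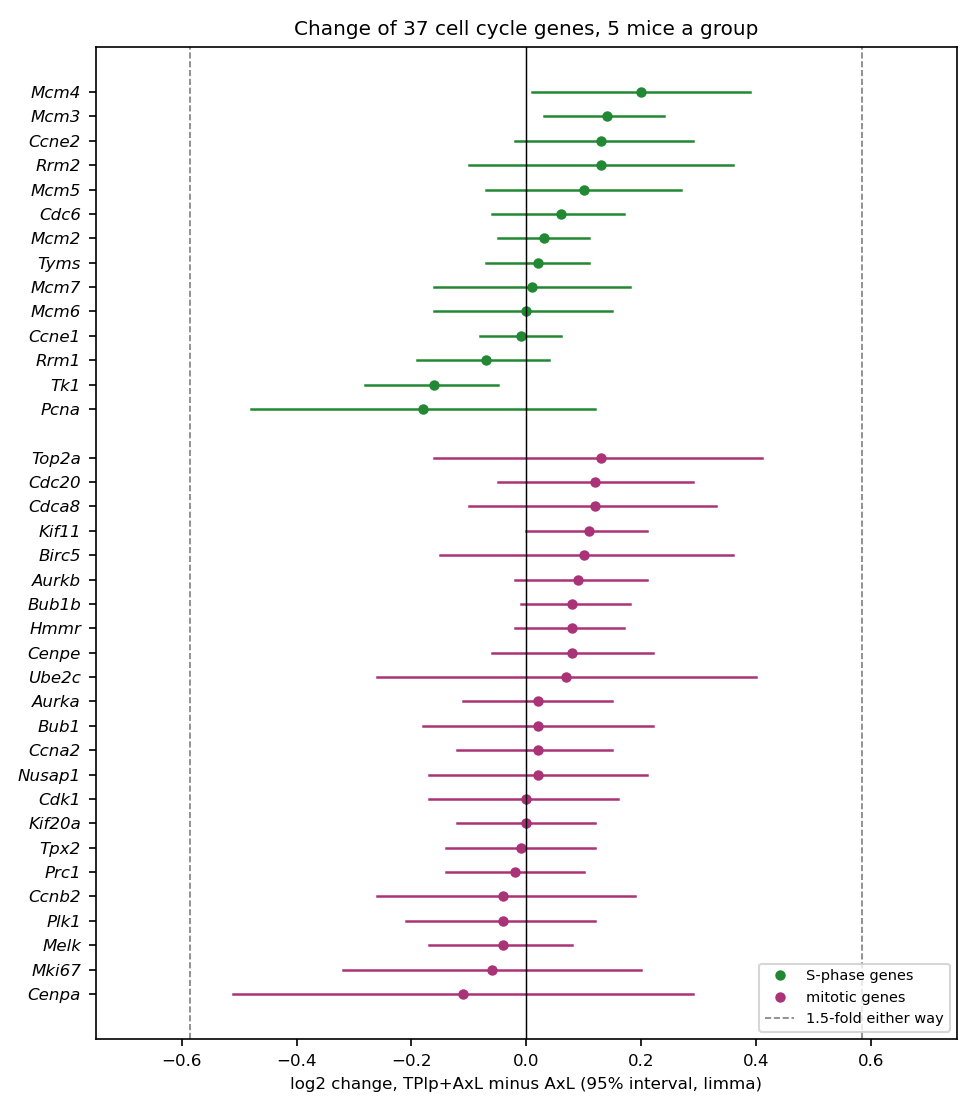
Log2 change (TPlp+AxL minus AxL, 5 mice a group) of the 37 cell cycle genes with its 95% interval from limma, S-phase genes above and mitotic genes below, with dashed lines at 1.5-fold either way. All intervals lie inside the dashed lines, and point values run from -0.18 to 0.20.

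Signal from a probe set does not by itself show that its transcript was present. The probe sets of 10 genes that female brain should lack (Y-linked and sperm genes) had mean levels of 6.14 to 8.37, with a median of 7.25. The means of 21 members (11 S-phase, 10 mitotic) lay above that highest value, and 16 lay at or below it. Probe sets differ in affinity, so this gives no order of abundance. It limits what can be said of the dimmer members, such as Tyms at 6.86 and Kif20a at 7.15. Of the genes described by mouse below, Kif11 (7.53), Aurkb (7.57), Cenpe (7.63), Ccne2 (7.68), Bub1b (8.04) and Hmmr (8.04) share this limit. Among the 10 genes, Uty and Sry had the smallest p, with changes of 0.15 (SE 0.04, limma adjusted p = 0.161) and -0.07 (limma adjusted p = 0.374). Limma's unadjusted p for Uty (0.00489) was below that of every member's brightest probe set.

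In the licensing of replication origins, the origin recognition complex and Cdc6 load the helicase made of Mcm2 to Mcm7. Mcm4 (1436708_x_at) measured 8.91, 9.12, 9.12, 9.15 and 8.79 in AxL 1 to 5 and 9.17, 8.97, 9.34, 9.30 and 9.30 in TPlp+AxL 1 to 5. Its change was 0.20 (SE 0.09, unadjusted p = 0.0436, limma adjusted p = 0.334), the largest positive change of the members, and the groups overlapped, with TPlp+AxL 2 inside the AxL range. Mcm3 (1449705_x_at) measured 8.70, 8.78, 8.80, 8.90 and 8.78 in AxL and 8.89, 8.96, 9.04, 8.82 and 8.93 in TPlp+AxL. Its change was 0.14 (SE 0.05, limma adjusted p = 0.246), with 4 of the AxL mice below every TPlp+AxL mouse and AxL 4 within their range.

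Mcm5 (1436808_x_at) measured 8.94, 8.91, 9.10, 9.11 and 9.07 in AxL and 9.21, 8.95, 9.38, 9.10 and 9.0 in TPlp+AxL, a change of 0.10 (SE 0.08, limma adjusted p = 0.551). TPlp+AxL 3 held its highest value and TPlp+AxL 2 lay among the lower AxL mice. Mcm2 (1434079_s_at) measured 9.42, 9.50, 9.50, 9.48 and 9.50 in AxL and 9.57, 9.46, 9.57, 9.45 and 9.52 in TPlp+AxL, a change of 0.03 (95% interval -0.05 to 0.11, limma adjusted p = 0.704). The Mcm2 probe set was among the steadiest, with the 10 mice within a narrow band. Mcm6 and Mcm7 had changes under 0.01 and of 0.01 in size, with intervals of -0.16 to 0.15 and -0.16 to 0.18. Cdc6, the loader of the helicase, had a change of 0.06 (SE 0.05).

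For several helicase genes the other probe sets did not follow the brightest. The second Mcm4 probe set (1416214_at), at a mean level of 8.83 close to the 9.12 of the first, had a change of -0.02 (limma adjusted p = 0.899). Mcm3 had 4 other probe sets, with changes of 0.07, -0.07, -0.02 and 0.11. The brightest Mcm6 probe set read a change under 0.01 in size, while another (1438852_x_at) read 0.19 (limma adjusted p = 0.356). An Mcm7 probe set (1416030_a_at) had a change of -0.13 (limma adjusted p = 0.218) beside 0.01 for the brightest. Across the members, 12 of the 25 genes with 2 or more probe sets held changes of both signs, among them Mcm2 to Mcm7, Rrm1 and Rrm2.

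Several of the larger positive values of S-phase genes came from probe sets that share a name ending. Identifiers ending in _x_at mark sets with probes that may also hybridise to other transcripts, and 8 of the 37 brightest probe sets end so, those of Mcm3, Mcm4, Mcm5 and Rrm2 among them. Of 14 member probe sets of that kind, 12 had a change above 0 (85.7%, median 0.08), against 44 of the other 70 (62.9%, median 0.01). Over the whole array the share above 0 was 46.3% for the 2441 probe sets ending in _x_at and 48.4% for the rest. With probe sets ending in _x_at, _s_at or _a_at left out, 31 members remained and their median change was 0.00, with -0.02 for S-phase genes. What these probe sets also hybridise to was not tested.

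Cyclin E, with its kinase Cdk2, fires the licensed origins. Ccne2 (1422535_at) measured 7.69, 7.51, 7.65, 7.66 and 7.55 in AxL and 7.94, 7.61, 7.89, 7.67 and 7.63 in TPlp+AxL. The change was 0.13 (SE 0.07, limma adjusted p = 0.408), and it came from TPlp+AxL 1 and 3, since the other 3 mice lay within the AxL range. Ccne1 had a change of -0.01 (SE 0.03).

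Pcna encodes the sliding clamp of the replicative polymerases, and the clamp also serves DNA repair in cells that do not divide. Its probe set (1417947_at) measured 11.72, 11.25, 11.62, 11.87 and 11.97 in AxL and 11.82, 11.52, 11.45, 11.21 and 11.54 in TPlp+AxL. The change of -0.18 had a wide interval (-0.48 to 0.12, limma adjusted p = 0.557). AxL 2 was low in its group, and in TPlp+AxL mouse 1 was high and mouse 4 was low. Pcna was the most variable S-phase gene, with a pooled SD within groups of 0.25.

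The nucleotide supply genes differed among themselves in sign. Tk1 (1416258_at), the thymidine kinase of the S-phase salvage path, measured 8.61, 8.53, 8.71, 8.68 and 8.57 in AxL and 8.49, 8.42, 8.60, 8.37 and 8.41 in TPlp+AxL. Its change of -0.16 (SE 0.05, 95% interval -0.28 to -0.05) had the smallest p of the 37 genes (unadjusted p = 0.00907), and limma's adjusted p of 0.200 missed the threshold. TPlp+AxL 1, 2, 4 and 5 lay below all AxL mice, while TPlp+AxL 3 lay among them. Rrm1 (1415878_at), the large subunit of ribonucleotide reductase, measured 8.51, 8.52, 8.59, 8.68 and 8.61 in AxL and 8.54, 8.34, 8.58, 8.50 and 8.58 in TPlp+AxL, a change of -0.07 (SE 0.05, limma adjusted p = 0.53). Rrm2, its regulated small subunit, had a change of 0.13 (SE 0.11), with TPlp+AxL 3 at 9.53 and TPlp+AxL 2 at 8.84. Tyms, thymidylate synthase, had a change of 0.02 at a dim level.

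**Figure D2:**
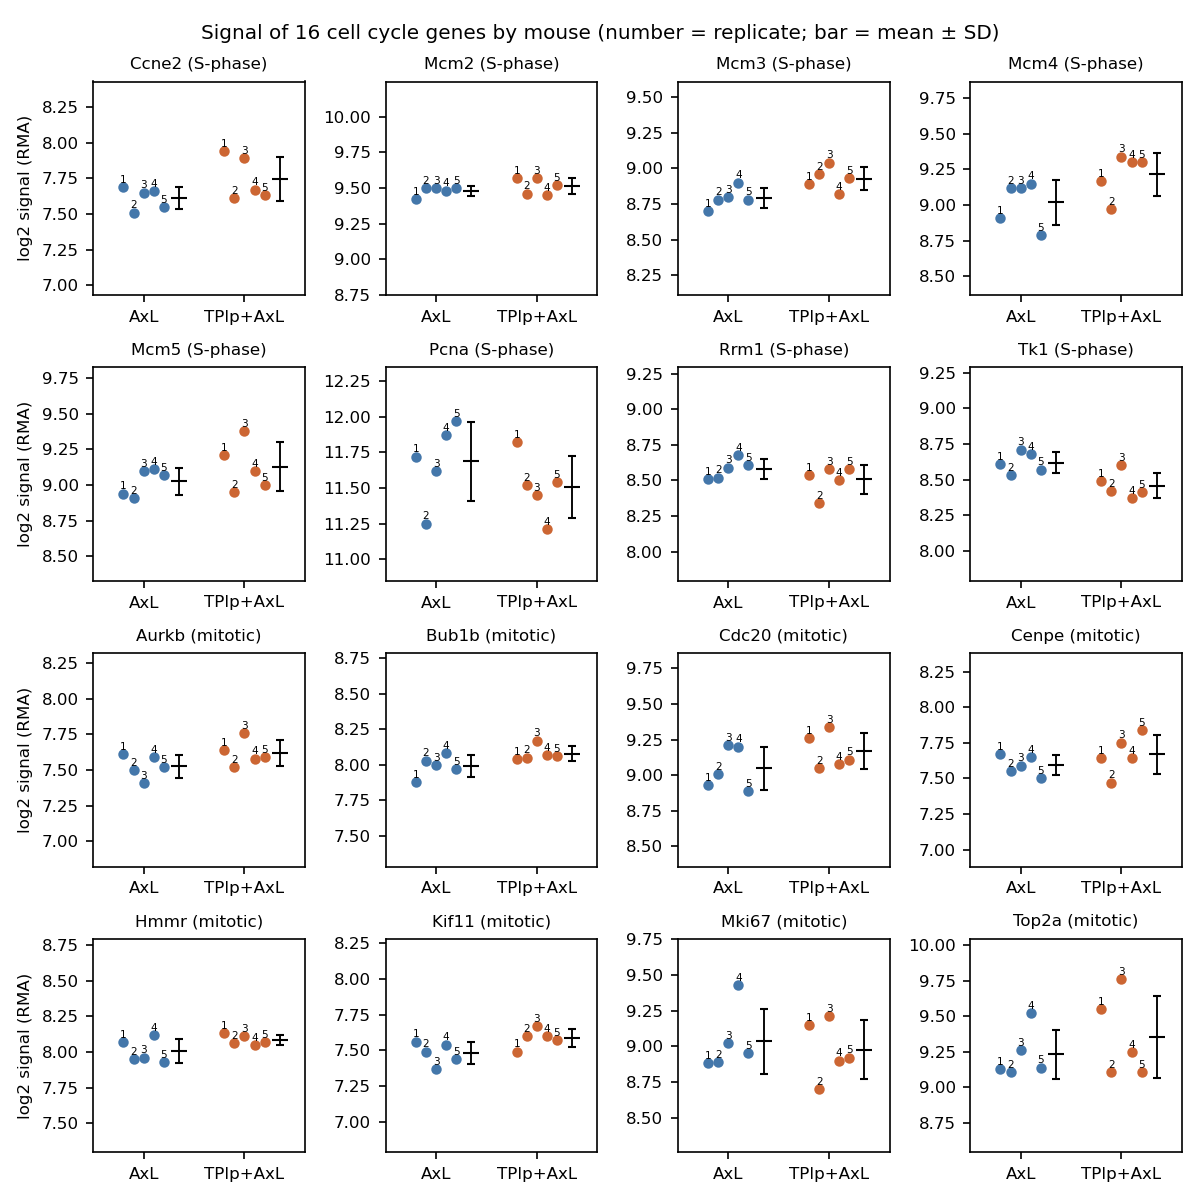
Deposited log2 RMA signal of 16 cell cycle genes in each mouse, numbered by replicate, for AxL (blue) and TPlp+AxL (orange), with bars for the group mean ± SD (n = 5). The groups overlap in every panel, and AxL 4 and TPlp+AxL 3 hold the highest values of their groups in the Top2a panel (9.52 and 9.76).

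Mitotic entry rests on Cdk1 with cyclins A2 and B. Cdk1 had a change under 0.01 in size (95% interval -0.17 to 0.16), Ccna2 of 0.02 and Ccnb2 of -0.04, with limma adjusted p from 0.891 to 0.982. The entry kinases Aurka and Plk1 had changes of 0.02 and -0.04, and the kinase Melk of -0.04. None of these genes differed between the groups by more than the spread between mice.

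Mki67 and Top2a, markers of proliferation and of chromosome condensation, varied widely between mice. Mki67 (1426817_at) measured 8.88, 8.89, 9.02, 9.43 and 8.95 in AxL and 9.15, 8.70, 9.21, 8.90 and 8.92 in TPlp+AxL. The change was -0.06 (SE 0.12, 95% interval -0.32 to 0.20, limma adjusted p = 0.845), and AxL 4 was the highest of the 10 mice. Top2a (1454694_a_at) measured 9.13, 9.11, 9.26, 9.52 and 9.14 in AxL and 9.55, 9.11, 9.76, 9.25 and 9.11 in TPlp+AxL. Its change was 0.13 (SE 0.13, limma adjusted p = 0.667), with TPlp+AxL 1 and 3 and AxL 4 high and the other 7 mice between 9.11 and 9.26.

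The chromosomal passenger complex, made of Aurkb, Birc5 (survivin), Cdca8 (borealin) and Incenp, corrects wrong attachments of chromosomes to the spindle. Aurkb (1424128_x_at) measured 7.61, 7.50, 7.41, 7.59 and 7.52 in AxL and 7.64, 7.52, 7.76, 7.58 and 7.59 in TPlp+AxL, a change of 0.09 (SE 0.05, limma adjusted p = 0.444). The groups overlapped, with TPlp+AxL 3 above the rest. Birc5 and Cdca8 had changes of 0.10 (SE 0.12) and 0.12 (SE 0.10).

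Kinetochore and checkpoint genes had changes from -0.11 to 0.08. Cenpe (1435005_at), the motor that moves chromosomes to the spindle equator, measured 7.67, 7.55, 7.59, 7.65 and 7.50 in AxL and 7.64, 7.47, 7.75, 7.64 and 7.84 in TPlp+AxL, a change of 0.08 (SE 0.06, limma adjusted p = 0.589). Bub1b (1416961_at), a checkpoint protein that restrains the anaphase-promoting complex, measured 7.88, 8.03, 8.0, 8.08 and 7.97 in AxL and 8.04, 8.05, 8.17, 8.07 and 8.06 in TPlp+AxL, a change of 0.08 (SE 0.04, limma adjusted p = 0.393). AxL 4 lay above 4 of the TPlp+AxL mice, so the groups overlapped. Bub1 had a change of 0.02 and Cenpa of -0.11 (95% interval -0.51 to 0.29), the widest interval of the members.

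Exit from mitosis is triggered by the anaphase-promoting complex with its activator Cdc20 and its ubiquitin carrier Ube2c. Cdc20 (1439377_x_at) measured 8.93, 9.01, 9.21, 9.20 and 8.89 in AxL and 9.26, 9.05, 9.34, 9.08 and 9.11 in TPlp+AxL, a change of 0.12 (SE 0.08, limma adjusted p = 0.497). AxL 3 and 4 lay above TPlp+AxL 2, 4 and 5. The other 2 Cdc20 probe sets had changes under 0.01 in size and of 0.01. Ube2c had a change of 0.07 (SE 0.15), with TPlp+AxL 3 at 9.75 and TPlp+AxL 5 at 8.91.

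Spindle motors and assembly factors held the mitotic gene with the smallest p. Kif11 (1452314_at), the motor that pushes spindle poles apart, measured 7.56, 7.49, 7.37, 7.54 and 7.44 in AxL and 7.49, 7.60, 7.67, 7.60 and 7.57 in TPlp+AxL. Its change was 0.11 (SE 0.05, unadjusted p = 0.0438, limma adjusted p = 0.334), with TPlp+AxL 1 inside the AxL range. Hmmr (1427541_x_at), a spindle protein also known as a hyaluronan receptor, measured 8.07, 7.95, 7.96, 8.12 and 7.93 in AxL and 8.13, 8.06, 8.11, 8.05 and 8.07 in TPlp+AxL, a change of 0.08 (SE 0.04, limma adjusted p = 0.423). Another Hmmr probe set (1425815_a_at) was the member probe set whose groups did not overlap: it measured 7.84 to 8.02 in AxL and 8.04 to 8.22 in TPlp+AxL, a change of 0.17 (SE 0.05). Its limma adjusted p of 0.138 missed the threshold and was the smallest of the 84 probe sets, and the remaining 3 Hmmr probe sets had changes of 0.01 to 0.04. Tpx2, Nusap1, Prc1 and Kif20a had changes between -0.02 and 0.02.

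Among the 47 probe sets beside the brightest, limma likewise called 0 at an adjusted p of 0.05, and 5 had an unadjusted p under 0.05. Their changes ran from -0.13 to 0.19. No reading of a member gene by another probe set therefore passed the threshold.

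Mice of the same group differed from each other by more than the groups did. The mean signal of the 23 mitotic genes was 8.21, 8.25, 8.28, 8.48 and 8.21 in AxL 1 to 5 (8.29 ± 0.11 SD) and 8.37, 8.20, 8.49, 8.29 and 8.25 in TPlp+AxL 1 to 5 (8.32 ± 0.11 SD). AxL 4 and TPlp+AxL 3 stood at almost the same height above their groups, and the group means differed by 0.03. The S-phase mean was 8.77, 8.75, 8.86, 8.85 and 8.82 in AxL (8.81 ± 0.05 SD) and 8.90, 8.73, 8.96, 8.77 and 8.84 in TPlp+AxL (8.84 ± 0.09 SD). TPlp+AxL 3 was the highest mouse there too, while AxL 4 stood level with AxL 3. The mitotic mean minus the S-phase mean, in which the offset between probe sets carries no meaning, was -0.53 ± 0.09 (SD) in AxL and -0.52 ± 0.05 (SD) in TPlp+AxL. Its highest value was -0.38, in AxL 4, against -0.61 to -0.50 in the other 4 AxL mice, so the balance of mitotic to S-phase signal did not differ between the groups by more than their spread.

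The same mice led gene by gene. AxL 4 and TPlp+AxL 3 were singled out by the mean of these same mitotic genes. High counts of mitotic genes in them, and in both together, therefore follow in part from that choice. Genes read in the same RNA are also not separate observations, so these counts describe the pattern and do not test it. AxL 4 was the highest AxL mouse for 15 of 23 mitotic genes (65.2%), against 33.2% of all genes, and for 5 of 14 S-phase genes. TPlp+AxL 3 was the highest TPlp+AxL mouse for 17 of 23 mitotic genes (73.9%) and 9 of 14 S-phase genes (64.3%), against 18.8% of all genes. For 11 mitotic and 5 S-phase genes both held, against 2.39% of all genes. At the low end, TPlp+AxL 2 was the lowest of its group for 12 of 23 mitotic genes and 7 of 14 S-phase genes, against 28.0% of all genes. TPlp+AxL 4 was the lowest for the other 7 S-phase genes, against 19.2% of all genes. Recounted after the data were seen, the mitotic genes led by AxL 4 and by TPlp+AxL 3 numbered 17 and 17 after quantile normalization, against 24.5% and 21.8% of all genes. After cyclic loess they numbered 18 and 17, against 26.5% and 20.9%. The S-phase genes led by AxL 4 fell to 1 of 14 after quantile normalization and 3 of 14 after cyclic loess. Those led by TPlp+AxL 3 stayed at 9 of 14 in both.

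The sizes of these deviations are taken against the mean of the other 4 mice of the group. They carry the same limit, since the mice were singled out by the same mitotic genes. In AxL 4 the median deviation was 0.19 over the mitotic genes, 0.07 over the S-phase genes and 0.00 over all genes. The largest in AxL 4 were Cenpa (1.0), Mki67 (0.49), Ccnb2 (0.41), Nusap1 (0.36) and Top2a (0.36). In TPlp+AxL 3 it was 0.17 over the mitotic genes and 0.15 over the S-phase genes, with Ube2c (0.62), Birc5 (0.52), Top2a (0.51) and Rrm2 (0.47) the largest. In this mouse replication and mitotic genes were both high, while in AxL 4 the median deviation was larger for mitotic genes. Mitotic genes with TTTGAA in the promoter (n = 14) had median deviations of 0.23 in AxL 4 and 0.21 in TPlp+AxL 3, and those without it (n = 5) of 0.19 and 0.17.

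**Figure D3:**
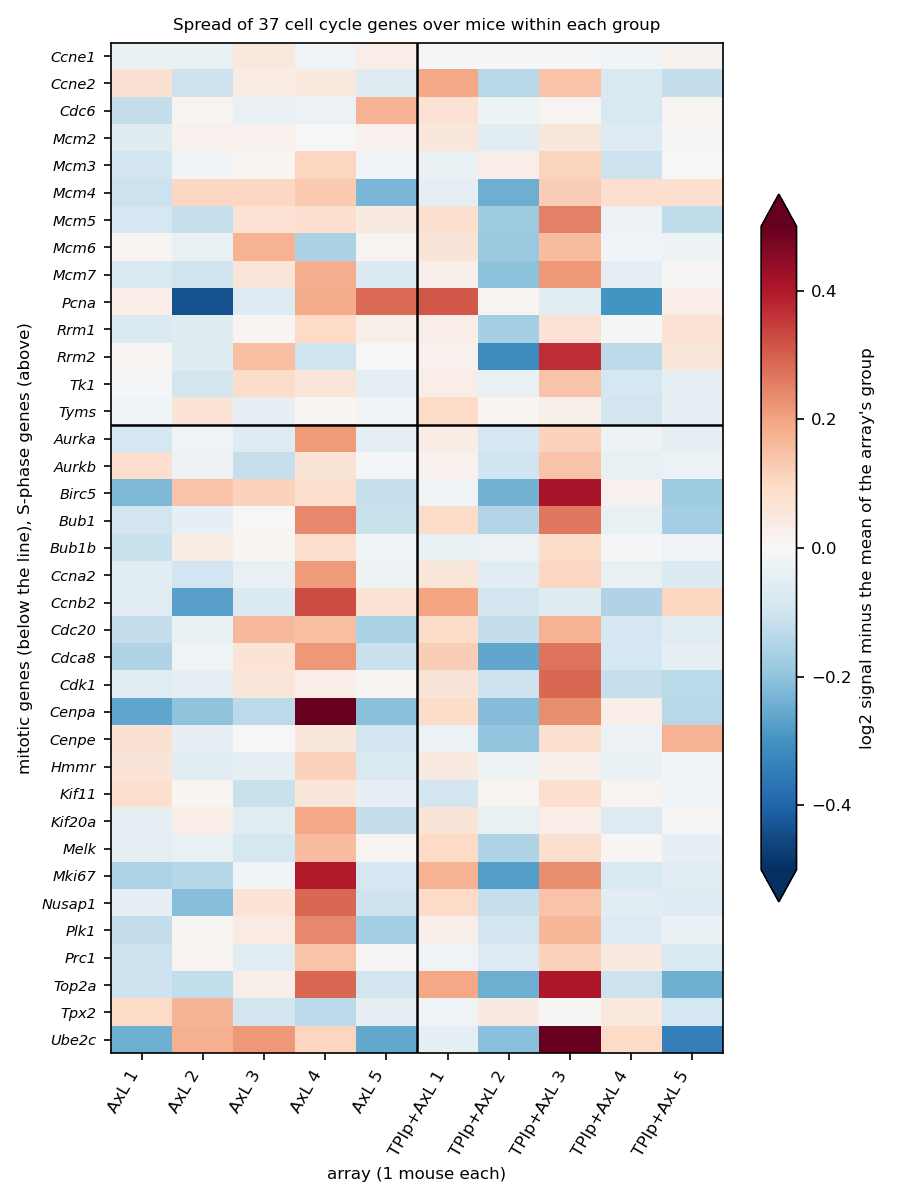
Deviation of each of 37 cell cycle genes in each mouse from its group's mean (log2 units, red above and blue below, colour ends at ±0.5), S-phase genes above the line and mitotic genes below it. The columns of AxL 4 and TPlp+AxL 3 are red for most mitotic genes, with Cenpa in AxL 4 and Ube2c in TPlp+AxL 3 the deepest.

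The probe sets beside the brightest were counted in the same way. AxL 4 was highest of its group for 12 of 26 mitotic (46.2%) and 10 of 21 S-phase probe sets (47.6%) of that kind, against 29.9% of all probe sets on the array. TPlp+AxL 3 was highest for 13 of 26 mitotic (50%) and 15 of 21 S-phase probe sets (71.4%), against 17.7%. These are probes to the same transcripts in the same RNA, so they are no further samples.

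The spread of single genes ranked high on the array for a few members. The pooled SD within groups was 0.34 for Cenpa, 0.28 for Ube2c, 0.25 for Pcna, 0.24 for Top2a and 0.22 for Mki67, each above the SD of at least 95.2% of genes. The median SD was 0.13 over mitotic genes and 0.10 over S-phase genes, against 0.09 over all genes. Ccne1, at 0.03, was among the steadiest genes measured.

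Other genes of replication and mitosis, from lists that share no gene with the members, held no calls either. Over all genes, limma called 1.26%, and 17.9% had an unadjusted p under 0.05. At the first share, lists of this length hold few calls or none. Of 35 other replication genes (origin recognition, polymerase, clamp loader and repair genes) limma called 0, with 2 at an unadjusted p under 0.05 and a median change of 0.02. Gins4, part of the active helicase, had a change of -0.14 (SE 0.06, limma adjusted p = 0.297), and Pole, the catalytic subunit of polymerase epsilon, of 0.11 (SE 0.04, limma adjusted p = 0.299). Of 51 other mitotic genes limma called 0, with 3 at an unadjusted p under 0.05 and a median change of 0.02. Kif15, a spindle motor, measured 7.79 to 7.93 in AxL and 7.93 to 7.98 in TPlp+AxL, a change of 0.10 (SE 0.03, limma adjusted p = 0.249). Trip13, which disassembles checkpoint complexes, had a change of 0.12 (SE 0.05, limma adjusted p = 0.294).

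TPlp+AxL 3 was the highest of its group for 28 of the 51 other mitotic genes (54.9%) and 16 of the 35 other replication genes (45.7%). AxL 4 was the highest of its group for 19 (37.3%) and 10 (28.6%), near its 33.2% over all genes. The excess of AxL 4 seen in the members was therefore not seen to that extent in the wider lists. Promoters of these genes resembled those of the members in their letters: 30 of 43 other mitotic genes held TTTGAA (69.8%), and 17 of 29 other replication genes held an E2F match (58.6%).

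Regulators of the cycle from a further list were not called either, where limma called 1.26% of all genes and 17.9% had an unadjusted p under 0.05. The list, named G1 regulators, holds E2F factors, retinoblastoma proteins, D cyclins, kinases and their inhibitors, Myc genes, Lin9 and Lin54. Not all of these act only in G1. Of its 30 genes limma called 0, with 0 at an unadjusted p under 0.05 and a median change of -0.04. Cdkn2d, an inhibitor of the cyclin D kinases, measured 10.70 to 11.19 in AxL and 10.59 to 10.92 in TPlp+AxL, a change of -0.18 (SE 0.10, limma adjusted p = 0.411). Mycn, a driver of progenitor division, had a change of -0.09 (SE 0.04, limma adjusted p = 0.382). Of 18 p53 target and growth arrest genes, 1 rose: Btg1, an antiproliferative gene abundant in resting lymphocytes. Btg1 measured 10.89, 10.96, 10.91, 11.00 and 10.82 in AxL and 11.47, 11.03, 11.36, 11.47 and 11.24 in TPlp+AxL, and its change was 0.40 (SE 0.08, limma adjusted p = 0.0408), with no overlap between the groups. With 1 array left out, that call held only without TPlp+AxL 2, and limma's adjusted p reached 0.124 without AxL 5.

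Several genes of the leukocyte lists rose in the same arrays, and which cells carried their signal was not tested. Over all genes, the share that limma called was 1.26%. Of 17 T cell genes 3 rose (Ms4a4b by 1.67, Cd3g by 0.87 and Cd3d by 0.63, log2) and 1 fell (Thy1, which neurons also express in quantity, by 0.25). The T cell list mean was 7.92 to 8.01 in AxL and 8.16 to 8.36 in TPlp+AxL. Of 17 monocyte and neutrophil genes 8 rose, led by Chil3 (2.18), Plac8 (1.92), S100a9 (1.18) and S100a8 (1.14). Their list mean was 8.41 to 8.72 in AxL and 9.06 to 9.29 in TPlp+AxL. Both leukocyte lists thus separated the groups, while the mean of the cell cycle genes (8.43 to 8.62 in AxL, 8.40 to 8.67 in TPlp+AxL) did not. All these lists were chosen with earlier results of these data known, so the separation may follow in part from that choice. Of the 14 genes called in all lists outside the members, 1 (Chil3, 2.27, limma adjusted p = 0.0283) was called without AxL 3, AxL 5 and TPlp+AxL 1. There the changes were 1.64 for Ms4a4b, 1.88 for Plac8, 0.88 for Cd3g, -0.29 for Thy1, 0.33 for Btg1 and -0.35 for Sox17, with limma adjusted p from 0.130 (Ms4a4b) to 0.380 (Btg1). The Thy1 call was also lost after quantile normalization (-0.12, limma adjusted p = 0.282) and cyclic loess (-0.12, limma adjusted p = 0.264). With 1 array left out, 7 (without TPlp+AxL 4) to 12 of the 14 were called, and without AxL 4 and TPlp+AxL 3 it was 7.

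The lists of progenitors, newly formed neurons, oligodendrocyte precursors and microglia gave no calls. Over all genes, limma called 1.26%, and 17.9% had an unadjusted p under 0.05, so short lists hold few calls or none. Limma called 0 of 17 genes of neural stem and progenitor cells (4 at an unadjusted p under 0.05, median change -0.07), 0 of 10 of newly formed neurons (2, -0.04), 0 of 10 of oligodendrocyte precursors (4, -0.11) and 0 of 11 of homeostatic microglia (3, -0.11). Prom1, a progenitor surface protein, had a change of -0.31 (SE 0.09, limma adjusted p = 0.152), and Vim, an intermediate filament of progenitors and reactive glia, of 0.35 (SE 0.12, limma adjusted p = 0.228) without overlap. In the newly formed neuron list, the 2 smallest p belonged to Stmn1, a tubulin-binding protein (-0.18, limma adjusted p = 0.307), and Ncam1, an adhesion molecule (-0.11, limma adjusted p = 0.321). Olig1 and Gpr17, genes of the oligodendrocyte lineage, had changes of -0.28 (limma adjusted p = 0.191) and -0.24 (limma adjusted p = 0.202). Trem2 and Gpr34, microglial receptors, had changes of -0.33 (limma adjusted p = 0.133) and -0.43 (limma adjusted p = 0.175). Of 10 endothelial genes all were lower in TPlp+AxL (median change -0.14, 5 at an unadjusted p under 0.05), and 1 fell past the threshold: Sox17, by 0.36 (limma adjusted p = 0.0462). With 1 array left out, that call held only without AxL 2 or AxL 4, and limma's adjusted p reached 0.121 without AxL 5. Of 12 genes of hippocampal neurons limma called 0 (2 at an unadjusted p under 0.05), with Neurod2 at -0.22 (limma adjusted p = 0.211) and Camk2a at -0.19 (limma adjusted p = 0.279). Of 10 choroid plexus genes it called 0 (0 at an unadjusted p under 0.05), with Kl at -0.43 and Kcnj13 at -0.96 (limma adjusted p = 0.572 and 0.630).

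Cell type markers in the pair of mice with high mitotic signal differed. In AxL 4 the progenitor list mean was 9.20, the highest of the AxL mice (8.98 to 9.20), and its T cell list mean of 7.92 was the lowest. AxL 4 was also the highest AxL mouse for newly formed neurons (10.22), oligodendrocyte precursors (9.35), homeostatic microglia (9.83), endothelium (8.35), G1 regulators (8.98) and p53 targets (9.57), so the progenitor list did not stand alone. Sox11, a factor of newly formed neurons picked after its values were seen, read 10.83 in AxL 4 and 8.73 to 9.59 in the other AxL mice, but Neurod1 and Dcx of the same list read 0.66 and 0.16 below the other AxL mice. In TPlp+AxL 3 the T cell list mean was 8.36, the highest of all mice, and the progenitor list mean of 8.98 was the lowest of its group. TPlp+AxL 4 had a T cell list mean of 8.30, close to it, with a mitotic mean of 8.29 near the middle of its group. AxL 4 also had the highest 75th percentile of signal (9.24, against 9.03 to 9.15 in the other 9 arrays). The part of these markers, and of the array's signal distribution, in the mitotic signal was not tested.

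**Figure D4:**
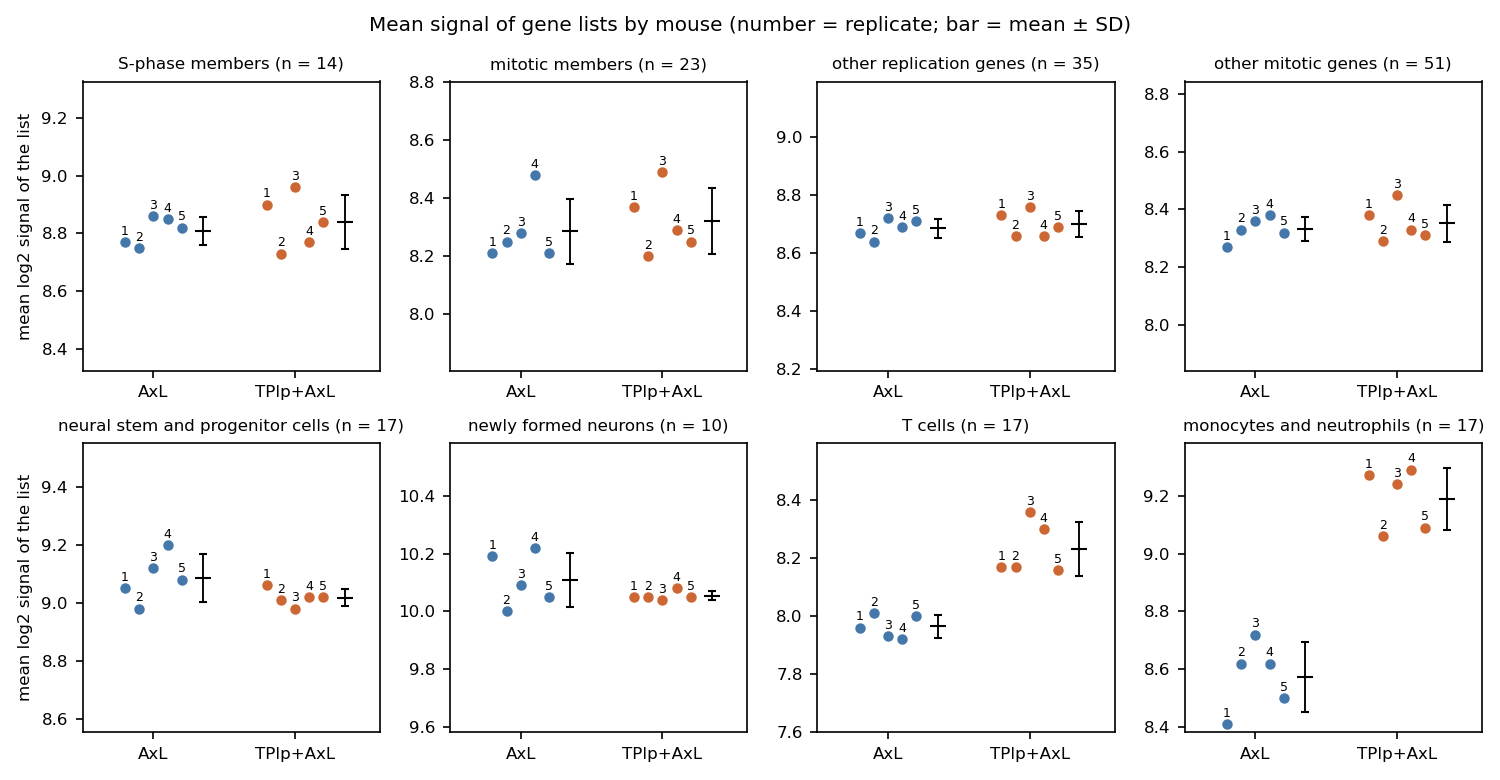
Mean log2 signal of gene lists in each mouse (numbers are replicates; bars are the group mean ± SD, n = 5; each panel has its own axis), with cell cycle lists above and cell type lists below. The cell cycle lists overlap between the groups, while the T cell list (7.92 to 8.01 against 8.16 to 8.36) and the monocyte and neutrophil list (8.41 to 8.72 against 9.06 to 9.29) do not.

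Without AxL 4 and TPlp+AxL 3 together, a setting added after seeing the data, limma called 0 of 37 members (2 higher and 1 lower at an unadjusted p under 0.05) and their median change was 0.03. Without AxL 4 alone, the median was 0.07 over all members and 0.09 over mitotic genes, with 5 genes higher at an unadjusted p under 0.05 and a smallest limma adjusted p of 0.170. The size of this small median thus depended on single mice.

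Without AxL 3, AxL 5 and TPlp+AxL 1, the mice with high choroid plexus signal, limma called 1 of 45037 probe sets, so its 0 calls among the members say nothing about their stability. The mitotic median there was -0.02, and the changes of some mitotic genes lay further from 0 than with all mice: Cenpa (-0.25), Mki67 (-0.14), Plk1 (-0.10), Melk (-0.10), Ccnb2 (-0.09) and Kif20a (-0.08). Top2a (0.06), Cdca8 (0.07), Ccne2 (0.08), Aurkb (0.04), Cenpe (0.05) and Hmmr (0.03) lay nearer to 0. Mcm4 (0.17), Mcm3 (0.15) and Tk1 (-0.16) lay near their values with all mice (0.20, 0.14 and -0.16).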

How the data were processed

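Total RNA of 10 whole hippocampi (5 AxL and 5 TPlp+AxL mice) was hybridised as biotinylated cRNA to Affymetrix expression arrays, per the labels' protocols. The values used are the deposited log2 expression values, made by the authors: the submitters' processing notes name RMA, a method that corrects background, quantile-normalizes and summarises probes. The software version was not given in the sources used here. No value was filtered or normalized further.

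The table held 45101 probe sets, of which 64 controls were left out. Platform gene symbols were brought up to date by Entrez identifier from a RefSeq gene table (GRCm38.p6), which matched 34741 of 34945 probe sets with 1 symbol. A further 932 had several symbols and 9160 none, and these were not named.

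The groups were compared with limma 3.58.1 under R 4.3.3 (lmFit, then eBayes with no trend), with no covariate, Benjamini-Hochberg adjustment over 45037 probe sets and a threshold of 0.05. "Rose" and "fell" are used only past it. The procedure was tested on simulated data. Limma's p-values set the difference between groups against the spread between these mice, with variances moderated over all probe sets. The number of arrays limits precision. Gene lists are described by counts and medians, with no test over a list.

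The members and lists were chosen with earlier results of these data known. Values by mouse are given for the 6 genes with the smallest p among S-phase and among mitotic genes, and for Mki67, Top2a, Pcna and Mcm2. From each other list up to 4 genes past the threshold are named, or the 2 with the smallest p. Alternatives were a trended and robust variance, a filter on the dimmest 40% of probe sets, 3 scalings, array weights, a replicate block, an adjusted p under 0.10, other choices of probe set, a choroid plexus covariate, and arrays left out.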

Additional observations from a re-analysis of the deposited data

Results flagged for a closer look

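In 6 of 78 sets of 5 mice, 1 mouse lay far from the other 4 by Dixon's criterion for 5 values (gap over range above 0.71). Chance gives about 1 in 20. In AxL 4, Cenpa read 9.48 (the other AxL mice 8.42 to 8.55), Mki67 9.43 (8.88 to 9.02), Ccna2, the cyclin of S phase and early mitosis, 9.25 (8.94 to 9.01), and Aurka, a spindle pole kinase, 8.27 (7.97 to 8.04). The mean of the 23 mitotic genes in AxL 4 was 8.48, with the other AxL mice at 8.21 to 8.28. In TPlp+AxL 3, Bub1b read 8.17 (the other TPlp+AxL mice 8.04 to 8.07). The mitotic mean holds the 4 genes named for AxL 4, so these are not separate observations.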

How the results depend on the processing

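Limma called 0 of the members under each of 23 alternatives. The fit without AxL 3, AxL 5 and TPlp+AxL 1 called almost nothing on the array and does not bear on this. The smallest adjusted p of any member ran from 0.114 (array medians subtracted) to 0.467 (without AxL 3, AxL 5 and TPlp+AxL 1), and was 0.122 to 0.334 with 1 array left out. Of 802 member changes under the alternatives, 89 had the other sign, none of them called. With 1 array left out the median change was -0.01 to 0.07 (members), 0.01 to 0.05 (S-phase) and -0.01 to 0.09 (mitotic).

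The count over all probe sets (376) moved more. It was 753 with array weights, 757 at an adjusted p under 0.10, 241 with the replicate block, 228 without AxL 4 and TPlp+AxL 3, and 1 without AxL 3, AxL 5 and TPlp+AxL 1. Each array left out in turn gave 185 (TPlp+AxL 4 out) at the lowest and 460 (AxL 2 out) at the highest, with 220, 240 and 243 for AxL 5, TPlp+AxL 3 and TPlp+AxL 5. The causes were not tested beyond the fewer arrays in these fits. Higher against lower calls were 291 and 85, but 269 and 210 with medians subtracted, 340 and 66 after quantile normalization and 348 and 43 after cyclic loess. Same-numbered mice did not pair (correlations of deviations -0.224 to 0.363, and 1 of 5 mice matched its own number best), and the replicate block called 0 members, and 7 of the 14 genes called in other lists. Subtracting medians moved the median of all genes from -0.03 to -0.06.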
